A study of Mus musculus with 79 samples.

Results

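The 32 genes described here encode the contents of neutrophil granules, the oxidase of the phagosome and surface or cytosolic proteins of maturing neutrophils, and they were picked by gene symbol from the 39063 genes with a gene ID in the deposited tables. They comprise 4 primary granule enzymes, 2 transcription factors of granulocyte development, 12 genes of secondary granules and immature neutrophils, 9 genes of late and mature neutrophils, 4 oxidase subunits and the lysozyme gene Lyz2. All 32 passed the filter of a mean of at least 0.4 TPM (a level scaled to transcript length and library total) over the 79 libraries, as did 14873 genes in all.

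RNA was sequenced from caudal vertebrae (CV) of 51 mice, and from lumbar vertebrae (LV) and inguinal white adipose tissue (iWAT) of some of the females. CV hold marrow that is mostly fat, the constitutive bone marrow adipose tissue of the tail, whereas LV hold red, blood-forming marrow. All mice were 4 to 5 months old and of a mixed SJL and C57BL6 background, and received PBS or leptin at 100 ng per h into the cerebral ventricle (ICV) for 9 days, with food intake matched by pair feeding. WT mice were BMAd-Pnpla2+/+ littermates of the BMAd-Pnpla2-/- (cKO) mice, in which the lipase ATGL is deleted in bone marrow adipocytes only, so that any other cell of the sampled tissue keeps the gene. CV came from 5 female WT mice with PBS and 5 with leptin, 4 female cKO mice with each, 5 male WT mice with PBS and 8 with leptin, 5 male cKO mice with PBS and 4 with leptin, and from male WT mice that also carried a subcutaneous insulin pellet, 5 with PBS and 6 with leptin. LV came from the same 18 females and iWAT from the 10 female WT mice, and males gave CV only.

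Neutrophils form in the marrow from progenitors that pass through ordered stages. Promyelocytes make the primary granule proteases Elane, Prtn3 and Ctsg and the peroxidase Mpo, myelocytes and metamyelocytes make the secondary granule proteins such as Ltf, Camp, Ngp and Lcn2, and the cells that leave for the blood carry Cxcr2, Mmp9 and very large amounts of S100a8 and S100a9. Because the transcripts of the first stages are mostly lost before release, primary granule RNA in a tissue is commonly read as a sign of granulocyte precursors, and the late genes as a sign of mature cells. In bulk RNA, fewer cells of a kind and less RNA per cell cannot be told apart.

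The promoters of the 4 primary granule genes are shown because these genes moved apart in iWAT. Each window runs from 250 bases before to 50 bases after the gene start of RefSeq in GRCm38.p6, the build to which the reads were aligned. Capitals mark GAGGAAG, the letters searched for PU.1, a factor of myeloid cells. In this set the letters stood on the strand of the gene in every window, and none held the letters searched for C/EBP (TTGCNNAA) or GFI1 (AAATCA) on either strand.
Prtn3, chr10:79879417-79879716, plus strand: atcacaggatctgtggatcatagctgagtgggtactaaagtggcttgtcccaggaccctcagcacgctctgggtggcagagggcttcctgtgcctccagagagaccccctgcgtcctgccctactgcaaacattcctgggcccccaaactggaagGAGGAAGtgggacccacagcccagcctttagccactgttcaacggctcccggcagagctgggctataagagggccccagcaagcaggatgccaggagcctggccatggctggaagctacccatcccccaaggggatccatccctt
Elane, chr10:79886062-79886361, plus strand: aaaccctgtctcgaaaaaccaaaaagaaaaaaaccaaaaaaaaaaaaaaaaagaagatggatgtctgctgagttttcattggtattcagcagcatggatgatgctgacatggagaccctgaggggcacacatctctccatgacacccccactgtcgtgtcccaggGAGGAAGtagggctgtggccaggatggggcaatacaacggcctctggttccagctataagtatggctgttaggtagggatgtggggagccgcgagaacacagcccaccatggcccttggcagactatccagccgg
Mpo, chr11:87793534-87793833, plus strand: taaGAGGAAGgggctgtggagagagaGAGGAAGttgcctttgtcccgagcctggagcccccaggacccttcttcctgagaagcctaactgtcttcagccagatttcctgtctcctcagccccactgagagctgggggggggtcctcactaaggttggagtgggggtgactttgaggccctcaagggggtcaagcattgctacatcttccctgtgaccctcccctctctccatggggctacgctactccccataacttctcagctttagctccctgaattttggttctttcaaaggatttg
Ctsg, chr14:56102525-56102824, minus strand: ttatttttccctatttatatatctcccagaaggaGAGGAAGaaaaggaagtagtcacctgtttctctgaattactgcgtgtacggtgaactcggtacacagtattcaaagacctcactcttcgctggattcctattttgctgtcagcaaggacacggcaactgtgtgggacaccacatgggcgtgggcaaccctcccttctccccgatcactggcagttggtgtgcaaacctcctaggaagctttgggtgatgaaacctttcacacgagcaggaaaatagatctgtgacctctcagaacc

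Promoter windows were given for 29 of the 32 members, 31 windows in all. A member counted when any of its windows held the letters, whereas the share over all genes is of single windows. The PU.1 letters, on either strand, were in windows of 13 of these 29 genes (44.8%) and in 13.6% of the 32851 windows of all genes. Windows of 10 members (34.5%) held the C/EBP letters, among them Ltf, Lcn2, Ngp and Fcnb of the secondary granules, against 10.8% of all windows. The GFI1 letters were in windows of 4 members (13.8%) and in 14.0% of all windows. A match of letters is a description of the window and not a binding site.

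In LV the 32 genes together held 14.7% to 28.3% of all TPM of a library, with a median of 20.2% over 18 females. In CV they held 0.375% to 1.87% (n = 51) and in iWAT 0.189% to 0.345% (n = 10). S100a8 and S100a9, which form the calcium-binding dimer calprotectin, made up most of this in LV, at 10.7% to 22.5% of all TPM. Tissues were set against each other in the 5 PBS-treated female WT mice, using edgeR's quasi-likelihood test on the deposited counts, TMM scaling and Benjamini-Hochberg adjustment over the 14873 genes. The tissues of a mouse entered as separate samples, and the mouse was a term of the fit only in an alternative. A gene counted as called when its adjusted p was below 0.05 and its log2 fold change was 0.5 or more in either direction. All 32 members were called lower in CV than in LV, where 31.7% of all genes were called lower. All 32 were also called lower in iWAT than in LV, with 32.6% of all genes called lower. Some members passed the filter of 0.4 TPM only through their levels in vertebrae. Among them were Fcnb, Itgb2l and Ly6g, at 0.19, 0.082 and 0.342 TPM on average in iWAT with PBS. For such genes a lower level in iWAT was nearly fixed by the filter. The median log2 fold change of the members was -5.30 in CV and -8.18 in iWAT against LV. Over all genes, 5184 were called higher and 4714 lower in CV, and 5042 and 4853 in iWAT, which became 9854 and 1566, and 8661 and 1998, with limma on log2(TPM + 1).

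The distance between CV and LV differed between some classes of genes and varied within others. Primary granule genes in CV stood at 2.49% to 5.11% of their LV mean in TPM, whereas the 4 oxidase subunits stood at 16.1% to 49.9% and Lyz2 at 27.8%. The secondary granule class ran from 2.37% to 13.6%, and the late class from 2.42% for S100a9 to 108% for Mmp9. Early and late genes were thus not separated by this measure. Elane, the neutrophil elastase, was at 1150 ± 49.6 TPM in LV and at 29.0 ± 28.9 TPM in CV (SD, n = 5), with a log2 fold change of -6.44 (SE 0.608, adjusted p = 5.25e-07 from edgeR). S100a8 was at 86375 ± 8143 TPM in LV and at 2819 ± 2168 TPM in CV (SD, n = 5), with a log2 fold change of -6.21. Cyba, the membrane subunit of the oxidase that other cells share, was at 574 ± 42.7 TPM in LV, 287 ± 26.9 TPM in CV and 260 ± 27.5 TPM in iWAT (SD, n = 5). The transcription factor Gfi1, which acts at the promyelocyte stage, was low in every tissue, at 16.7 TPM on average in LV, 2.07 TPM in CV and 0.802 TPM in iWAT.

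Mmp9, a gelatinase of late neutrophil granules that osteoclasts also make, was the exception among the members. Its level was 464.1 ± 183.58 TPM in CV and 428 ± 41.0 TPM in LV (SD, n = 5), so that CV reached 108% of the LV mean. With TMM scaling its log2 fold change in CV against LV was -0.98 (adjusted p = 0.00113 from edgeR), and on the log2(TPM + 1) scale in limma it was 0.04 (adjusted p = 0.863). That change moved the median of all genes from 0.02 to 0.87, and limma on TPM differs from the first test in tool and input as well as in scale. With RLE size factors in edgeR the value was -0.99.

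**Figure D1:**
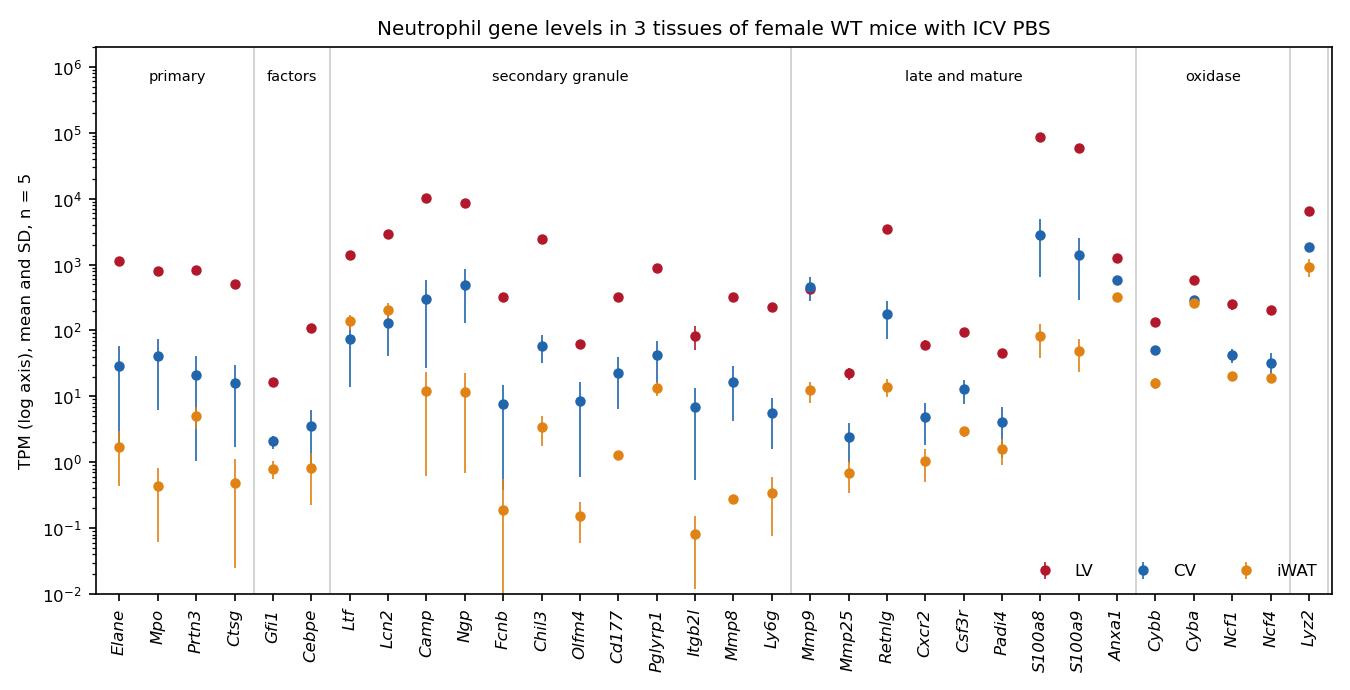
Mean TPM on a log axis with SD (n = 5) of the 32 genes in LV, CV and iWAT of female WT mice with ICV PBS, ordered by class. Lower bars that would reach below 0 are shortened. LV lies highest for every gene except Mmp9, and the primary and secondary granule genes are spread farther between tissues than the oxidase genes.

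In iWAT the secondary granule class did not move as a unit. Camp, the cathelicidin gene, stood at 0.116% of its LV mean and Fcnb, ficolin B, at 0.0594%, whereas Ltf (lactoferrin) stood at 9.72% and Lcn2 (lipocalin 2) at 6.94%. Ltf was at 137 ± 33.5 TPM in iWAT with PBS (SD, n = 5), above its CV mean of 73.8 TPM. Markers of mammary epithelium, which also makes lactoferrin, summed to 939 to 1374 TPM over 6 genes in these iWAT libraries and to 73.5 to 104 TPM in CV, with Wap at 0 in both. Their part in the iWAT level of Ltf and Lcn2 was not tested.

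Levels in CV differed widely between mice. The highest level of Elane within a group was 3.25 to 33.3 times the lowest. Over the 51 mice of all 10 groups, the highest level was 78.97 times the lowest for Elane, 92.0 times for Mpo, 22.9 times for Camp and 13.8 times for S100a8, while the ratio was 2.22 for Cyba and 2.34 for Lyz2. In LV the same ratio was 1.90 for Elane and 1.86 for Camp over 18 mice. In some groups 1 animal was highest for most members. In female WT mice with PBS, replicate 3 had the highest level of 27 of the 32 members. In male WT mice with PBS replicate 3 had the highest of 29. In male cKO mice with PBS replicate 1 had the highest of 28, and in female cKO mice with leptin replicate 1 had the highest of 31. Replicate 2 had the highest of 24 in female cKO mice with PBS and of 26 in male WT mice with leptin. These animals came from the same range of mouse numbers, as did others of their groups. The male cKO mouse with leptin that was highest for 19 members came from another range. The part of the range was not tested. In other groups the highest values were divided, with 16 and 11 members highest in 2 of the female WT mice with leptin, 19 and 11 in 2 of the male cKO mice with leptin, and at most 14 and 13 in any mouse of the leptin and PBS groups with insulin.

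Elane in female WT CV with PBS was at 10.5, 34.1, 77.2, 15.2 and 7.78 TPM in replicates 1 to 5. With leptin it was at 11.7, 51.3, 7.36, 5.64 and 36.0 TPM. The groups overlapped over almost their whole range. In male cKO CV Elane was at 88.2, 32.1, 15.8, 41.7 and 9.19 TPM with PBS and at 18.9, 14.3, 3.93 and 6.88 TPM with leptin, and the groups again overlapped. Camp, a gene of the myelocyte stage, was at 152, 384, 742, 132 and 87.4 TPM in female WT CV with PBS and at 116, 359, 58.7, 60.6 and 253 TPM with leptin, so that replicate 3 with PBS was highest for both genes.

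Transcripts of other blood cells were high in some of these CV libraries and not in others. Prg2, the major basic protein of eosinophils, was at 142 TPM in female WT replicate 3 with PBS, where Elane was highest, and at 7.20 to 76.8 TPM in the other 4. Ppbp, a platelet chemokine, was at 29.5 TPM in that library and at 5.13 to 35.2 TPM in the others. In male WT mice with PBS, Prg2 was at 55.3 TPM in replicate 3 and at 4.02 to 8.29 TPM in the rest. Markers of skeletal muscle, which surrounds the tail bones, summed to 10180 to 29004 TPM in female WT CV and to 530 to 1912 TPM in LV. In male WT mice with leptin, replicate 2 was highest for 26 members, while its Prg2 (8.66 TPM) lay below that of replicates 1 and 3 (9.30 and 10.97 TPM). The part of blood or red marrow in these differences between mice was not tested.

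**Figure D2:**
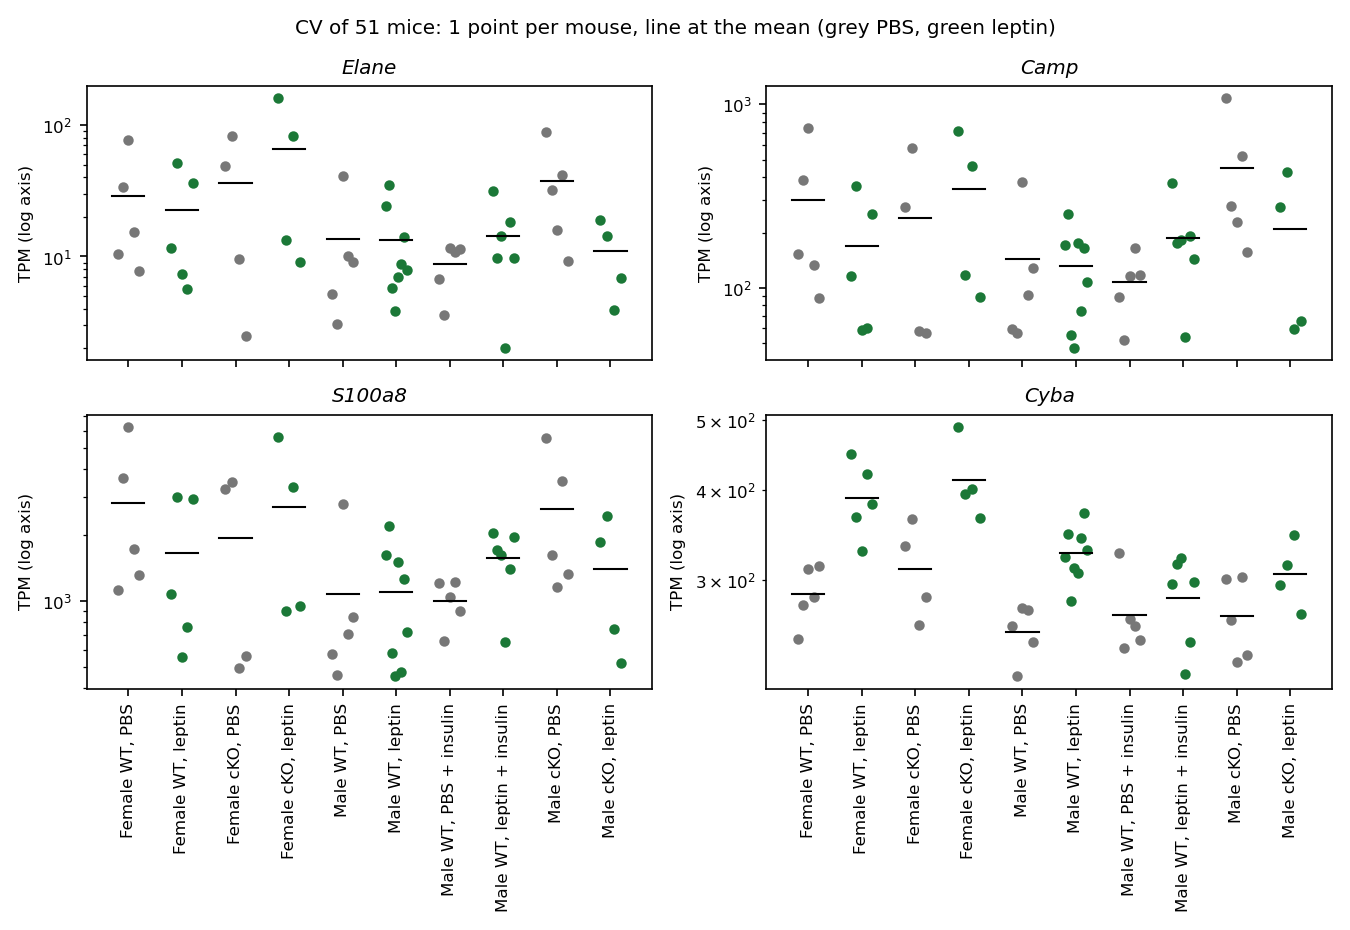
TPM on a log axis of Elane, Camp, S100a8 and Cyba in CV, with 1 point per mouse and a line at the mean of each of the 10 groups. Elane, Camp and S100a8 spread widely within groups and overlap between PBS and leptin, while Cyba varies little. Cyba lies higher with leptin, without overlap, in females of both genotypes and in male WT mice without insulin. In male cKO mice and in mice with insulin its values overlap.

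The first question of the study's design is what central leptin changes in CV. In the fit of the 40 CV libraries without insulin, with sex and genotype as strata, no member was called for leptin against PBS, where 5.37% of all genes were called. Over the members, 7 had an unadjusted p below 0.05 in edgeR's test, a smaller share than the 38.6% of all genes. DESeq2 called 1 member and 800 of all 14873 genes. The members' median log2 fold change was -0.20, against 0.0031 for all genes, and 10 of the 32 were positive. These signs are not independent, since members share the mice in which they are high. All 4 primary granule genes had negative values, from -0.57 for Mpo to -0.13, with adjusted p of 0.350 or more, and all 4 oxidase genes had positive values, from 0.19 to 0.35.

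Cyba had the smallest p of the members, with a log2 fold change of 0.35 (SE 0.0556, adjusted p = 8.84e-06 from edgeR), below the fold that the call asked for. Its level in female WT CV was 248, 277, 311, 284 and 314 TPM with PBS and 448, 367, 330, 421 and 383 TPM with leptin. Every leptin mouse lay above every PBS mouse in this group, as was true of 3.81% of all genes. The same held in female cKO CV, with 260 to 365 TPM with PBS and 366 to 489 TPM with leptin (1.39% of all genes), and in male WT CV, with 220 to 274 TPM and 281 to 371.8 TPM (1.35%). In male cKO CV the groups overlapped, at 230 to 303 TPM and 269 to 346 TPM. Lyz2, the lysozyme of macrophages and neutrophils, had a log2 fold change of 0.27 (adjusted p = 0.00610), and Anxa1, an annexin of mature neutrophils and many other cells, had -0.19 (adjusted p = 0.0287). Lyz2 and its neighbour Lyz1 are near-identical, and reads may be split between them.

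Itgb2l, an integrin of maturing neutrophils, lay at the edge, with a log2 fold change of -1.09 (SE 0.420, adjusted p = 0.0503 from edgeR). It was called with DESeq2 and when any of 16 of the 40 mice was left out, a set of fits chosen after the data were seen. Itgb2l was at 1.39, 9.07, 17.2, 3.36 and 3.68 TPM in female WT CV with PBS and at 1.43, 1.44, 0.570, 0.930 and 5.50 TPM with leptin, so that the groups overlapped and the PBS mean rested mostly on replicates 2 and 3.

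Within the strata the members' medians pointed in different directions, where the median of all genes lay between -0.0117 and 0.0209. Members share the mice in which they are high, so their signs are not independent. In female WT CV the members' median log2 fold change was -0.45 and 9 of 32 were positive. In female cKO CV the median was 0.32 with 29 positive, in male WT CV 0.03 with 17 positive, and in male cKO CV -0.67 with 3 positive. Members called numbered 0 in male WT CV (1.75% of all genes called), 0 in female cKO CV (0.0269%) and 0 in male cKO CV (0.188%). At an unadjusted p below 0.05 in edgeR's test, 3, 2 and 6 members passed there, beside 19%, 11.6% and 9.66% of all genes, and DESeq2 called 1 in male cKO CV and 0 in the others. Neither the interaction of leptin with sex in WT CV (0% of all genes called) nor that with genotype (0%) called a member, with 1 and 0 members at an unadjusted p below 0.05 (7.6% and 6.02% of all genes) and 0 by DESeq2 in both. The strata are parts of the fit over the 40 libraries and share its mice.

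In male cKO CV the primary granule genes had the lowest median of the classes, -1.60, with values of -1.86 for Mpo (SE 0.562), -1.67 for Elane (SE 0.581), -1.54 for Ctsg (SE 0.586) and -1.04 for Prtn3 (SE 0.444). Their adjusted p in edgeR's test were 0.251 to 0.485. Gfi1, which represses genes of other lineages in promyelocytes, was at 3.35, 2.15, 1.89, 1.89 and 1.73 TPM with PBS and at 1.56, 1.10, 1.07 and 1.03 TPM with leptin. Every leptin mouse was below every PBS mouse, as for 1.82% of all genes, and the log2 fold change was -0.83 (SE 0.193, adjusted p = 0.120 from edgeR, called with DESeq2). Its counts were 36 to 94 per library, which limits precision. In male cKO CV some leptin mice came from a range of mouse numbers that held none of the PBS mice. Leptin and that range cannot be fully told apart there, for all values of this paragraph.

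Mmp9 was the only member called in female WT CV, where it rose with leptin by 1.36 on the log2 scale (SE 0.311, adjusted p = 0.0243 from edgeR) and 2.78% of all genes were called higher. Mmp9 was at 296, 326, 755, 508 and 435 TPM with PBS and at 715, 1669, 1366, 923 and 1300 TPM with leptin. The groups met only at PBS replicate 3 and leptin replicate 1. Without PBS replicate 1, PBS replicate 2 or leptin replicate 5 the call was lost. In female cKO CV the values were 1255, 1073, 878 and 397 TPM with PBS and 2616, 1852, 1470 and 821 TPM with leptin, with a log2 fold change of 0.94 (adjusted p = 0.405). Male WT CV had 82.9 to 242 TPM with PBS and 85.1 to 348 TPM with leptin, below most females.

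Of 4 osteoclast markers, Ocstamp was called higher with leptin in female WT CV (1.70, adjusted p = 0.0339 from edgeR), and Atp6v0d2 (1.25), Ctsk (1.21) and Acp5 (1.02) had adjusted p of 0.0780 to 0.144. The 4 summed to 777 to 2506 TPM in female WT CV with PBS and to 1326 to 4847 TPM with leptin, which overlap, and none was at 0. Acp5, the tartrate-resistant acid phosphatase, had means of 601 and 1224 TPM with PBS and leptin in female WT CV, and of 254 and 221 TPM in male WT CV. Of the other 8 late and mature members, 7 had negative values in female WT CV. The part of osteoclasts in the rise of Mmp9 was not tested.

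In LV no member was called for leptin against PBS in the 18 females with genotype in the fit, where 1.11% of all genes were called, and DESeq2 called 0. At an unadjusted p below 0.05, which 21.5% of all genes had, 3 members passed in edgeR's test, Csf3r (0.16), Prtn3 (0.34) and Olfm4 (-0.35), with adjusted p of 0.166, 0.211 and 0.230. All 4 primary granule genes had positive values, at 0.23 for Elane, 0.34 for Prtn3, 0.21 for Mpo and 0.25 for Ctsg. Elane in female WT LV was at 1207, 1179, 1074, 1146 and 1147 TPM with PBS and at 1580, 1360, 1283, 1390 and 1605 TPM with leptin. Prtn3 was at 937, 890, 830, 808 and 702 TPM with PBS and at 1344, 1111, 949, 981 and 1311 TPM with leptin. For these 2 members every leptin mouse lay above every PBS mouse in WT, as for 1.02% of all genes. In cKO LV the groups overlapped, with Elane at 852 to 1363 TPM with PBS and at 1012 to 1620 TPM with leptin.

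The late genes of LV stayed close between treatments. Their 9 log2 fold changes ran from -0.11 to 0.16, and the 12 of the secondary granule class from -0.43 to 0.28. S100a8 in female WT LV was at 76213 to 97659 TPM with PBS and at 64489 to 128130 TPM with leptin. In the test of whether the leptin effect differed between CV and LV of females, Mmp9 was the only member called, with a difference of 1.30 on the log2 scale, CV higher (SE 0.275, adjusted p = 0.00261 from edgeR), where 3.76% of all genes were called. CV and LV of a mouse entered this fit as separate samples, without a term for the mouse. With such a term Mmp9 kept its call. Cyba had a difference of 0.38 (adjusted p = 0.161).

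**Figure D3:**
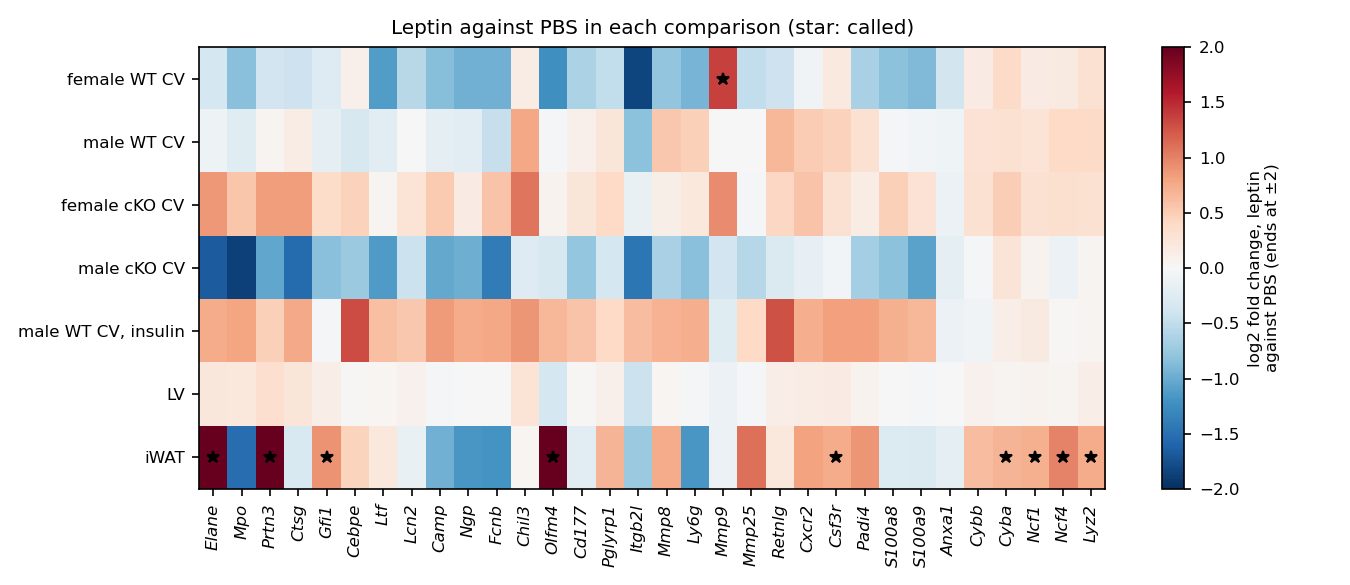
Log2 fold change of leptin against PBS for the 32 genes (columns, by class) in 7 comparisons (rows), in colour, with stars at called values. Colours end at 2 in each direction and the Prtn3, Elane and Olfm4 values of iWAT lie beyond. Female WT CV and male cKO CV are mostly blue, female cKO CV and the insulin-treated males mostly red, and stars stand in iWAT and at Mmp9 in female WT CV.

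In iWAT, 9 of the 32 members were called higher with leptin and 0 lower, where 7.24% of all genes were called higher. They comprised 2 of 4 primary granule genes, Gfi1, 1 of 12 secondary granule genes, 1 of 9 late genes, 3 of 4 oxidase genes and Lyz2. The members' median log2 fold change was 0.33, against 0.07 for all genes. Over all genes 1077 were called higher and 1171 lower, and 465 and 1421 with limma on log2(TPM + 1).

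Prtn3, proteinase 3, rose most, by 3.86 on the log2 scale (SE 0.491, adjusted p = 5.08e-04 from edgeR). It was at 3.18, 3.01, 6.05, 7.12 and 5.80 TPM with PBS and at 54.3, 19.9, 132, 75.4 and 55.7 TPM with leptin, so that the mean was 13.4 times as high. Elane rose by 2.92 (SE 0.501, adjusted p = 0.00247), from 1.15, 0.360, 1.01, 3.52 and 2.59 TPM to 12.4, 9.27, 19.6, 12.0 and 7.59 TPM, or 7.05 times in the mean. For both genes every leptin mouse lay above every PBS mouse, as for 4.32% of all genes, and Prtn3 stood on 27 to 59 counts per library with PBS and 181 to 1322 with leptin.

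Mpo and Ctsg, which promyelocytes make together with Prtn3 and Elane, did not pass the test and were almost absent from the same libraries. Mpo was at 0.50, 0.0300, 0.0700, 0.850 and 0.740 TPM with PBS and at 0.490, 0.10, 0.0300, 0.0300 and 0.0600 TPM with leptin, on 1 to 23 counts (log2 fold change -1.52, adjusted p = 0.230). Ctsg was at 0 to 1.51 TPM with PBS and 0.10 to 0.870 TPM with leptin (adjusted p = 0.831). The mean of Prtn3 was 1.06 times that of Mpo in LV and 0.514 times in CV of female WT mice with PBS. In iWAT it was 11.5 times that of Mpo with PBS and 476 times with leptin, on few counts of Mpo. Of the 12 secondary granule genes only Olfm4 was called, and the 12 log2 fold changes ran from -1.19 to 2.76. Camp was at 2.41 to 31.2 TPM with PBS and 0.420 to 11.4 TPM with leptin, and Ly6g, the Gr-1 surface antigen, had a log2 fold change of -1.16 (adjusted p = 0.259).

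**Figure D4:**
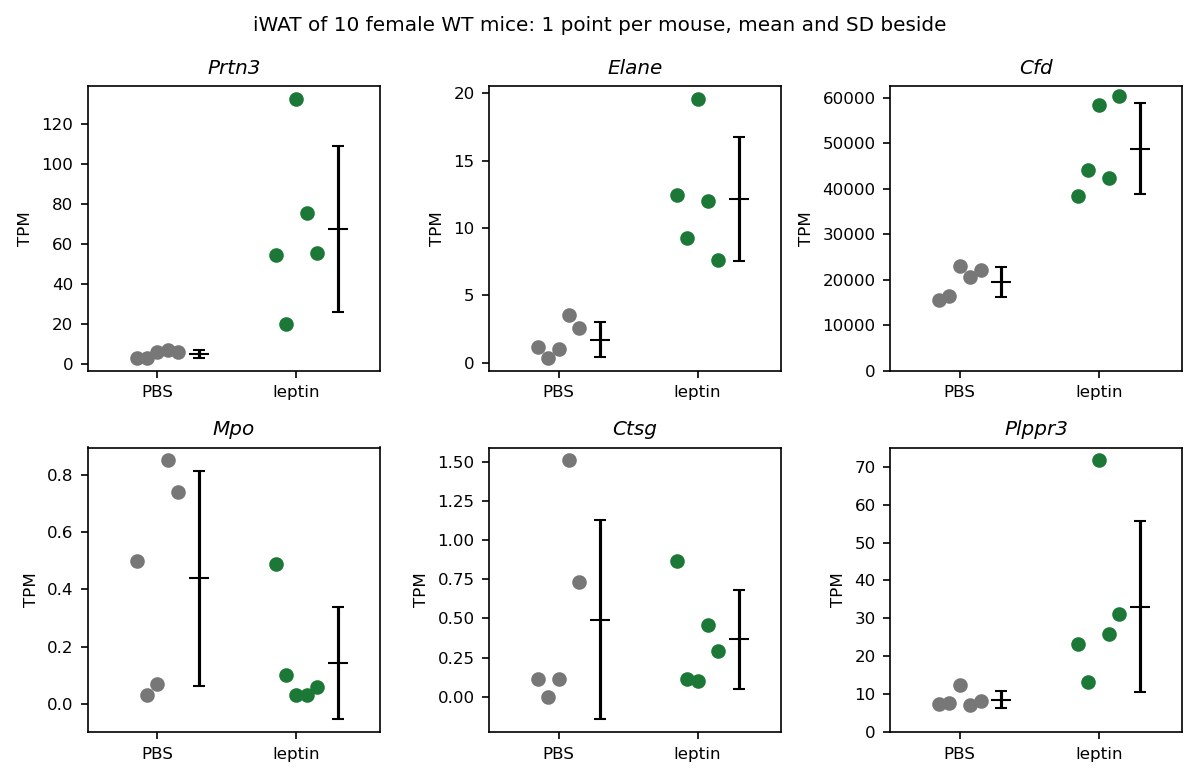
TPM in iWAT of 5 female WT mice with PBS and 5 with leptin for 4 primary granule genes, Cfd and Plppr3, with 1 point per mouse and the mean and SD beside. Prtn3, Elane, Cfd and Plppr3 do not overlap between the groups, and Mpo and Ctsg stay at or below 1.51 TPM.

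Prtn3 and Elane are neighbours on mouse chromosome 10, at 79879667 to 79883174 and 79886312 to 79888216 of GRCm38.p6, with 3137 bases between them. Next to Elane, 2636 bases farther, lies Cfd, which encodes the serine protease adipsin (complement factor D) and is among the most abundant transcripts of fat cells. The 8 genes along this stretch were chosen after the values of Prtn3 and Elane were seen. Cfd was at 15611, 16460, 22985, 20532 and 22194 TPM in iWAT with PBS and at 38484, 44183, 58533, 42405 and 60362 TPM with leptin, a rise of 1.42 (SE 0.211, adjusted p = 0.00120 from edgeR). Plppr3, on the other side of Prtn3 and on the opposite strand, rose by 2.04 (SE 0.401, adjusted p = 0.00493), from 7.12 to 12.5 TPM with PBS to 13.4 to 71.8 TPM with leptin.

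The change did not extend beyond these 4 genes in the same direction at the call's fold. Ptbp1, beyond Plppr3, had a log2 fold change of 0.35, Med16, beyond Cfd, fell by 0.70 (adjusted p = 0.00116), and R3hdm4 and Kiss1r had values of -0.06 and -0.40. In CV of female WT mice, where Cfd was at 1298 to 3681 TPM, none of the 4 was called for leptin, with values of -0.36 for Cfd and 0.11 for Plppr3. The TPM of Prtn3 in iWAT came to 0.0183% to 0.0347% of that of Cfd with PBS and to 0.0451% to 0.226% with leptin. For Elane the shares were 0.00219% to 0.0171% with PBS and 0.0126% to 0.0334% with leptin, which overlap. The part of the neighbouring genes in the iWAT levels of Prtn3 and Elane was not tested.

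**Figure D5:**
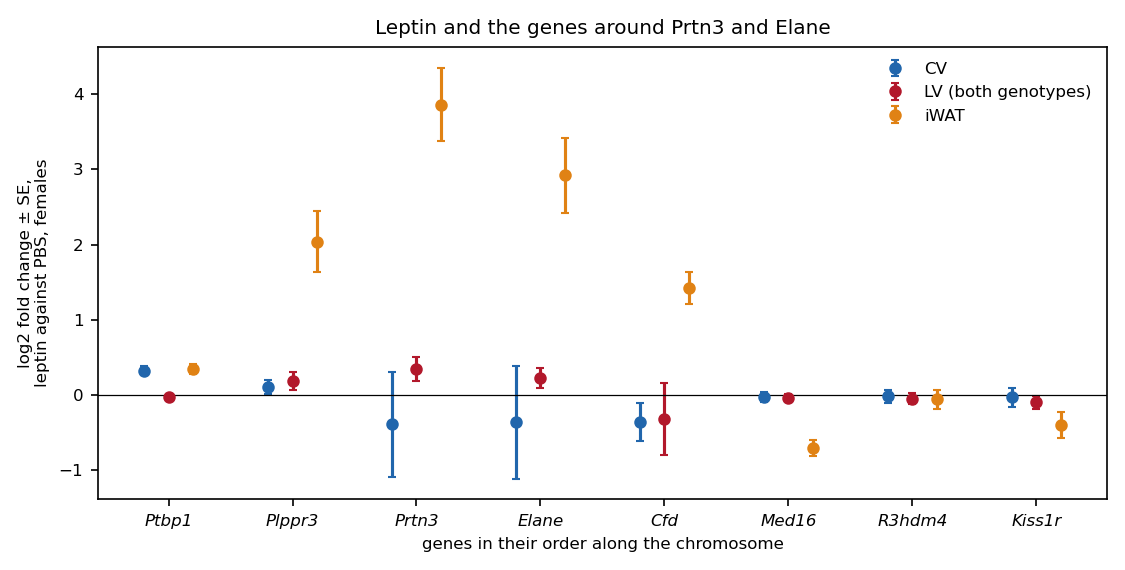
Log2 fold change with SE of leptin against PBS in females for 8 neighbouring genes, in their order along the chromosome, in CV of WT mice (n = 5 a group), LV of both genotypes (18 mice) and iWAT of WT mice (n = 5 a group). In iWAT the values rise from Plppr3 to Prtn3 and decline through Elane to Cfd, and CV and LV stay near 0.

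The oxidase and Lyz2 rose together in iWAT. Ncf4, a cytosolic subunit, rose by 0.99 (SE 0.178, adjusted p = 0.00317 from edgeR), from 22.8, 14.0, 19.4, 22.1 and 18.2 TPM to 41.5, 27.7, 28.5, 35.5 and 43.5 TPM, without overlap. Ncf1, a second cytosolic subunit, rose by 0.71 and Cyba by 0.67 (adjusted p = 0.00673 and 0.00801), with Cyba at 236 to 291 TPM with PBS and 269 to 470 TPM with leptin. Cybb, the catalytic subunit, had a value of 0.62 (adjusted p = 0.0951). Lyz2 rose by 0.74 (adjusted p = 0.0408), from 706 to 1364 TPM with PBS to 857 to 1828 TPM, and Lyz1 by 0.75. Csf3r, the receptor of G-CSF, rose by 0.75 (adjusted p = 0.0167) and Gfi1 by 0.90 (adjusted p = 0.0378).

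Olfm4, a glycoprotein of some neutrophils and of glands, was called at 2.76 (SE 0.890, adjusted p = 0.0425) on 1 to 80 counts per library. It was at 0.260, 0.10, 0.130, 0.240 and 0.0400 TPM with PBS and at 0.0800, 0.370, 2.28, 0.220 and 1.93 TPM with leptin, so that replicates 3 and 5 carried the difference. Over all alternatives its value ran from 0.62 to 3.04. Olfm4, Gfi1 and Lyz2 lost the call in most of the fits that left out 1 mouse, whereas Prtn3, Elane, Ncf4, Ncf1 and Cyba kept it in all 10. Csf3r lost it only without leptin replicate 1, when 6 members and 1783 of all genes were called.

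Among the leukocyte markers of the same libraries, Klrb1c of NK cells was called higher (0.96, adjusted p = 0.0459 from edgeR) and Ebf1, which adipocyte precursors also express, lower (-0.52), and the others were not called. Ptprc, the pan-leukocyte antigen CD45, was at 12.8 to 55.9 TPM with PBS and 16.5 to 109 TPM with leptin (log2 fold change 1.26, adjusted p = 0.0851). The 10 markers of monocytes and macrophages summed to 633 to 1512 TPM with PBS and 956 to 1753 TPM with leptin, the 7 of the B lineage to 90.2 to 348 TPM and 22.9 to 594 TPM, and the 5 of T and NK cells to 40.3 to 89.0 TPM and 19.6 to 168.4 TPM, with Trbc2 at 0. Adipocyte markers summed to 37462 to 54238 TPM with PBS and 12618 to 29925 TPM with leptin. The part of these cells in the rise of the oxidase genes, Lyz2 and Csf3r was not tested.

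Other genes of neutrophils and of their supply were taken from 2 further lists. Of 29 other neutrophil genes, 5 were called higher and 1 lower with leptin in iWAT, beside 7.24% and 7.87% of all genes. Those called higher included Wfdc21 (2.45), Mgst1 (1.17), Rac2 (1.09) and Itgb2 (1.07), and the one called lower was Hp, the haptoglobin gene that adipocytes also make (-1.16). Wfdc21 stood at 109 to 162.7 TPM with PBS and 257 to 1203 TPM with leptin. In CV over the 4 strata, Clec4d (0.58) and Clec4e (0.55), lectin receptors of myeloid cells, were called higher and Hp (-0.74) lower. In LV, 2 of the 29 had an unadjusted p below 0.05 in edgeR's test and 0 were called.

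A second list held signals and factors of granulopoiesis, and was chosen with earlier results of these data known. Of 14 tested in CV over the 4 strata, 4 were called higher and 2 lower, and 13 had an unadjusted p below 0.05, beside 3.27%, 2.1% and 38.6% of all genes. Higher were Cebpd (0.98) and Cebpb (0.83), factors of induced granulopoiesis, Cxcr4 (0.76), the receptor that holds neutrophils in the marrow, and the adhesion molecule Vcam1 (0.56). Lower were Cxcl5 (-0.88), a neutrophil attractant, and Cebpa (-0.51), the factor of steady-state granulopoiesis that adipocytes also use. Cxcl12, the ligand of Cxcr4, had a value of 0.47 (adjusted p = 1.09e-04 from edgeR), below the fold of the call. In iWAT 5 were called higher, Cxcl2 (2.55), Cxcr4 (0.86), Cebpb (0.80), Csf2rb (0.72) and Cxcl12 (0.70), and 1 lower, Cebpa (-0.88). In LV, 4 of the 14 had an unadjusted p below 0.05 in edgeR's test and 0 were called. In the edgeR fit of CV over the strata no member of the main gene set was called. The median log2 fold change of that set was negative there. CV marrow is mostly fat, and the part of granulocyte precursors in the changes of this second list was not tested.

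Insulin pellets were used to keep circulating insulin up during leptin treatment, and CV of male WT mice were sequenced. The 4 groups are shared between the comparisons that follow. With leptin against PBS in mice with a pellet, 0 members were called (0.558% of all genes called), 4 had an unadjusted p below 0.05 (15.5% of all genes) and DESeq2 called 0. The members' median was 0.67 with 28 of 32 positive, beside 0.0133 for all genes, and members share the mice in which they are high. The 4 smallest p belonged to Chil3 (0.89), Retnlg (1.27), Cebpe (1.31) and Csf3r (0.82), with adjusted p of 0.169 to 0.285. Chil3, the chitinase-like protein Ym1, was at 45.1, 34.1, 49.5, 74.2 and 45.2 TPM with PBS and insulin and at 37.2 to 166.4 TPM with leptin and insulin, with a median of 81.4 TPM, and the groups overlapped. Its close relative Chil4 was at 0 to 0.150 TPM in female WT CV.

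Insulin against none called 0 members with PBS (0% of all genes called) and 0 with leptin (0.363%), with 3 and 2 members at an unadjusted p below 0.05 (6.56% and 16.6% of all genes) and 0 by DESeq2 in both. Every mouse with a pellet came from another range of mouse numbers than the male WT mice without one, so insulin and that range cannot be told apart. With PBS the smallest p were those of Cebpe (-1.27), a factor of the myelocyte stage, Chil3 (0.77), Itgb2l (-1.22) and Lcn2 (-0.72), all with adjusted p above 0.71. With leptin, Chil3 had a value of 0.88 (adjusted p = 0.118) and Cyba of -0.21 (adjusted p = 0.192). The interaction of leptin and insulin called 0 members (0% of all genes called), with 1 at an unadjusted p below 0.05 (9.31% of all genes) and 0 by DESeq2.

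Loss of ATGL in marrow adipocytes called 0 members in CV (0.269% of all genes called), with 7 at an unadjusted p below 0.05 (14.2% of all genes) and 0 by DESeq2. Of the 32 values, 31 were positive in cKO against WT, with a median of 0.49 beside 0.0036 for all genes. Members share the mice in which they are high. Some cKO mice came from a range of mouse numbers that held no WT mouse. That range was not a term of the fit, so genotype and range cannot be fully told apart here or in LV. Mmp9 had 0.60 (SE 0.186, adjusted p = 0.149), Chil3 0.66 (adjusted p = 0.233), Gfi1 0.34 (adjusted p = 0.242) and Camp 0.85 (adjusted p = 0.305). Camp in male CV with PBS was at 59.3, 56.9, 376, 91.3 and 129 TPM in WT mice and at 1077, 278, 227, 522 and 157 TPM in cKO mice, and the groups overlapped at WT replicate 3. Prg2 of eosinophils was at 4.02, 7.02, 55.3, 5.10 and 8.29 TPM in these WT mice and at 103.5, 30.3, 23.1, 23.2 and 8.85 TPM in the cKO mice, and its part was not tested. Pnpla2, the targeted gene, was at 131 to 266 TPM in CV of cKO mice and at 191 to 405 TPM in WT mice without insulin. In LV 0 members were called for genotype (0.0202% of all genes called), with 0 at an unadjusted p below 0.05 (4.55% of all genes) and 0 by DESeq2, and the median was 0.02.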

How the data were processed

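RNA of CV, LV and iWAT was enriched with oligo dT and sequenced as paired reads on the DNBSEQ platform. Per the labels and the study's methods, SOAPnuke filtered the reads, HISAT and Bowtie2 placed them on GRCm38.p6, and the processing notes also name GRCm39. The counting tool was not given in the sources used here. The authors deposited estimated counts per gene, not normalized, and TPM, which are scaled to transcript length and library total.

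Libraries held 16100377 to 19364106 counts in CV (51), 28717516 to 29757254 in LV (18) and 17638318 to 19100698 in iWAT (10). Of 74693 features, 39063 had a gene ID, and 51 values in 6 genes that were not whole were rounded. The 14873 genes that averaged 0.4 TPM or more across 79 libraries were tested with edgeR 4.0.16 (quasi-likelihood, TMM) in R 4.3.3, with Benjamini-Hochberg adjustment. A call needed an adjusted p below 0.05 with a log2 fold change of 0.5 or more, up or down. SE were computed from the fold change and its F value. DESeq2 1.42.0 and limma 3.58.1 served as alternatives. The scripts were tested on simulated data with 200 of 14873 genes changed by 1 log2 unit. Of these, 95% were recovered for leptin in CV over the strata and 44% for leptin in iWAT. The simulated spread was estimated without the leptin term, so real leptin differences added to it and these shares may be too low.

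Groups came from the labels, and each library is a separate mouse except that LV and iWAT came from mice that also gave CV. The members and gene lists were chosen with earlier results of these data known. All 32 members are described, and in each comparison the called members are named, or those with the smallest p where few were called. Same-numbered libraries of different mice had correlated deviations in 16 of 37 pairs only (r above 0.1, from -0.40 to 0.51), so numbers were not taken as pairs, while CV, LV and iWAT of 1 mouse are the same animal (15 of 23 pairs above 0.1). Alternatives covered the tool, scaling, filter, fold minimum, covariates and each mouse left out. One gene of the further neutrophil list is not reported here.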

Additional observations from a re-analysis of the deposited data

Results flagged for a closer look

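Single mice that lay far from the rest of their group by Dixon's test were found for 11 of 104 combinations of gene and group tested. The test's rate of about 1 in 20 holds for normally distributed values and separate tests. TPM were not transformed and members share mice, so that rate is no measure of chance here. In male WT CV with PBS, replicate 3 stood apart for Elane (40.65 TPM, next 10.14), Camp (376.4 TPM, next 128.9), S100a8 (2774 TPM, next 851.3) and Itgb2l (5.11 TPM, next 1.70).

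In male cKO CV with leptin, replicate 1 stood apart for Mmp9 (379.6 TPM, next 161.9) and Gfi1 (1.56 TPM, next 1.10), and with PBS replicate 1 did for Gfi1 (3.35 TPM, next 2.15). Itgb2l was at 8.39 TPM in female cKO CV leptin replicate 1 (next 1.58) and at 5.50 TPM in female WT CV leptin replicate 5 (next 1.44). Cyba was at 327.3 TPM in male WT CV replicate 1 with PBS and insulin (next 264.6). In iWAT with leptin, Mpo was at 0.49 TPM in replicate 1 (next 0.10).

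The leptin effect on Mmp9 in females differed between CV and LV by 1.30 on the log2 scale (adjusted p = 0.00261 in edgeR's test of the interaction, without a term for the mouse).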

How the results depend on the processing

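The count of members called for leptin in CV over the 4 strata was 0, and 3 with no fold minimum (Cyba, Lyz2 and Anxa1), 1 with DESeq2 (Itgb2l), 1 with a term for the mouse number series (Chil3), 1 without female cKO mice (Itgb2l) and 1 without male cKO mice (Mmp9). In female WT CV it was 3 with no fold minimum, and in male cKO CV 1 with DESeq2 (Gfi1). Mmp9 in CV against LV turned to 0.0392 with limma on log2(TPM + 1) and to 0.0391 on log2(TPM + 0.1), and the cause was not tested. Leaving out 1 mouse gave 0 to 1 members for leptin in CV over the strata, 0 to 1 in female WT CV, 0 to 1 for insulin with leptin (Chil3, without male WT leptin replicate 2) and 6 to 10 in iWAT. Over all genes those fits called 680 to 860 in CV over the strata and 302 to 941 in female WT CV. They called 1744 to 2845 in iWAT, and 30 in the fit that called Chil3. With a replicate block the counts were 8 in iWAT, 1 in female WT CV, 1 for the interaction with tissue, 32 in both tissue comparisons and 0 elsewhere. Of all genes, these fits called 2229 in iWAT, 832 in female WT CV and 607 for the interaction. In the tissue comparisons they called 9904 for CV and 9907 for iWAT. Of 610 recomputed fold changes of called members 595 kept direction and call, as did 394 of 420 when a mouse was left out. Most of these values belonged to the 2 tissue comparisons, where most differences were large. For leptin in iWAT, over all alternatives, Lyz2 lost its call in 12 of 19 fits, Gfi1 in 10 of 19 and Olfm4 in 11 of 18. Csf3r lost it in 1 of 19, and Mmp9 in female WT CV in 3 of 20. Over all genes, 798 were called for leptin in CV, 407 with limma on log2(TPM + 1) and 191 with an erythroid marker score as a covariate, and DESeq2 called 219 in female cKO CV (edgeR 4) and 214 in male cKO CV (edgeR 28). iWAT counts as low as 1 per library limit Mpo, Ctsg and Olfm4.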
